A study of Mus musculus with 8 samples.

Results

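Layer IV neurons were 7496 of the 60989 cells in the annotated single-cell RNA-seq table of mouse cortex. They were taken as the cells that the authors typed as Layer IV, at every age, and made up 7496 of 41266 projection neurons. The cells came from the somatosensory cortex and motor cortex of C57BL/6 wild-type animals at P1, P7 and P21 (postnatal days 1, 7 and 21), with no transgene or treatment in any group. By the methods, live cells were sorted as DAPI-negative and Vybrant DyeCycle Ruby-positive, whereas the protocol text in the labels speaks of a sort for tdTomato, a red fluorescent reporter that wild-type mice do not carry. Cells were captured with the 10x Chromium 3′ v2 kit, and each of the 8 libraries pooled tissue of at least 8 animals. Libraries are called here by the number that follows the cell barcode, so that P1 has libraries 3, 4 and 5, P7 has 1 and 2, and P21 has 6, 7 and 8. P-values measure the spread between these libraries, and the P7 pair shares a collection day in its titles. No day was shared between ages, so age and day cannot be told apart. The methods raise the papain concentration at P21 in the dissociation to which the single-cell libraries refer back, while the labels give the same concentration at every age.

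Layer IV is the granular layer of sensory cortex. Its excitatory neurons receive the main input from the sensory thalamus and pass it on within the cortical column, while callosal projection neurons (CPN) send axons to the other hemisphere. Thalamic axons sort into their mature pattern in this layer during the first postnatal week. The transcription factor gene Rorb is the usual marker of layer IV. Its expression was not analysed here, since the table holds no gene-level values, and the name is the authors' annotation as it stands.

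All layer IV cells of an age belonged to a single cluster, and that cluster held no other type. The authors clustered each age separately and gave types to clusters, so pure clusters and separate clusters per age follow from the annotation. They also split a few clusters of mixed identity and merged subclusters of the same type. Cluster counts therefore reflect these steps as well as the cells. There were 4578 such cells in cluster 1 of P1, 2717 in cluster 2 of P7 and 201 in cluster 51 of P21. The clusters' own names end in CPN at all 3 ages, so the finer label and the type label of these cells differ. CPN were spread over 6 clusters at P1, 6 at P7 and 1 at P21, among 12, 12 and 3 projection neuron clusters in all. Since age and cluster coincide, a change of the layer IV cells with age and a change of what was named layer IV cannot be told apart. Among layer IV cells, 37 barcodes occurred in more than 1 library, with at most 8 in any of the 28 pairs of libraries. Counting cells of any type in the other libraries, 550 layer IV cells had a barcode found elsewhere. How many unrelated libraries would share was not worked out.

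Layer IV neurons were a minority of projection neurons in every library of P1 and P7, and ranged from a small minority to the majority at P21. At P1 they made up 20.2% of projection neurons in library 3, 23.8% in library 4 and 14.4% in library 5, where 9032, 7458 and 6840 projection neurons were counted. At P7 the shares were 15.1% of 8757 in library 1 and 16.1% of 8682 in library 2. At P21 they were 7.60% of 171 in library 6 (Wilson 95% interval 4.50% to 12.6%), 24.4% of 41 in library 7 (13.8% to 39.3%) and 62.5% of 285 in library 8 (56.7% to 67.9%). Corticothalamic projection neurons numbered 817 to 1315 per library at P1, 2468 and 2710 at P7, and 0 in each P21 library. Library 7 also had 0 subcerebral projection neurons. The projection neurons of P21 thus covered fewer types, and shares of them do not have a like base among ages. The intervals of the P1 libraries did not overlap one another, and neither did that of library 8 with any other, so libraries of 1 age differed by more than counting error, which is all that these intervals cover. The share did not pass the two-sided exact permutation test among ages (adjusted p = 0.886, over 3 denominators).

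Set against CPN alone, there were 30.3, 42.9 and 22.0 layer IV neurons for every 100 CPN in libraries 3, 4 and 5. The P7 libraries had 27.5 and 31.5. In the P21 libraries the number was 9.63, 32.3 and 212, so library 8 was the only one of the 8 in which layer IV neurons outnumbered CPN, with 178 against 84. That library held 88.6% of the layer IV neurons of P21 but 33.6% of the CPN of that age. As a share of CPN and layer IV together, ages did not differ beyond the spread (adjusted p = 0.886, exact permutation test). The P1 libraries gave 23.8% ± 6.01 (SD, n = 3), the P7 pair 22.8% ± 1.69 (SD, n = 2) and the P21 libraries 33.7% ± 30.7 (SD, n = 3).

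As a share of all cells, layer IV neurons ranged from 11.5% to 19.4% at P1, stood at 11.7% and 12.5% at P7, and at 0.454%, 0.446% and 3.66% at P21. This measure passed the exact permutation test (adjusted p = 0.0429). Projection neurons of all types together numbered 497 of 9965 cells in the P21 libraries and 23330 of 28537 in those of P1. CPN alone numbered 250 and 14615, so the fall as a share of all cells was not particular to layer IV. The call was lost when any library other than 5 was left out, with adjusted p from 0.0714 to 0.129 in the exact permutation test.

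**Figure D1:**
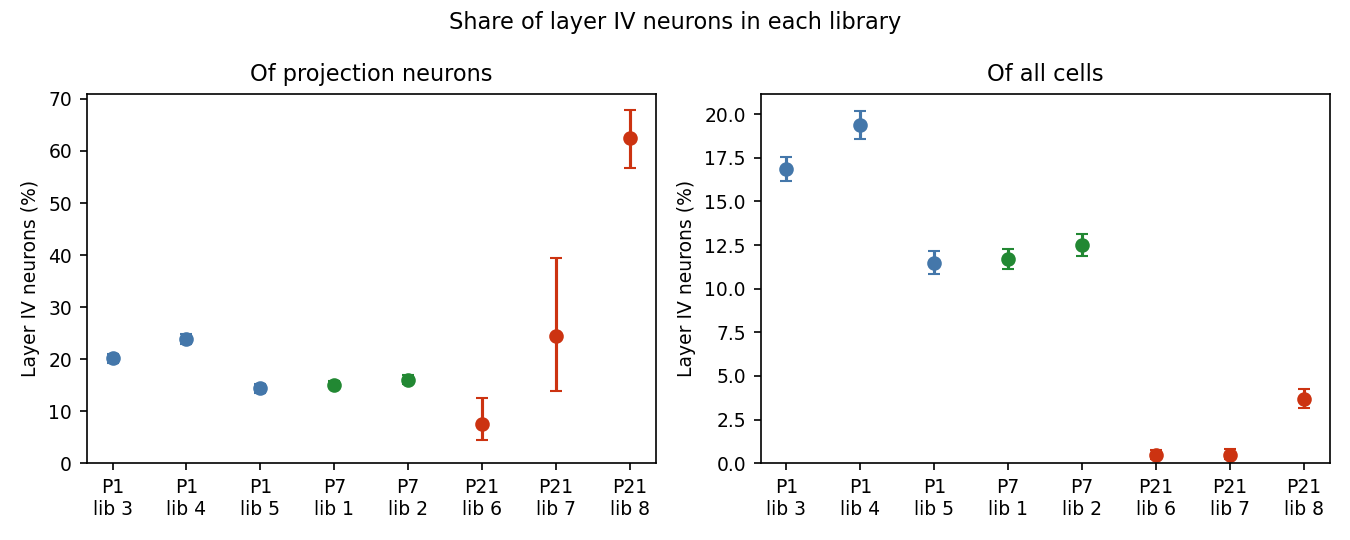
Layer IV neurons as a percentage of projection neurons (left) and of all cells (right) in each library, grouped by age; points are libraries and bars are Wilson 95% intervals, which cover counting error only. Library 8 stands at 62.5% of projection neurons and the other 7 libraries between 7.60% and 24.4%. At P21 no cell was typed as a corticothalamic projection neuron, so the left panel has a narrower base there.

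Layer IV neurons carried fewer transcripts than CPN of the same library at P7 and more at P21, with no common direction at P1. Transcripts are given as UMIs, counts of distinct captured molecules, and each value is the median over the cells of a library. At P1 the medians were 3189 UMIs in layer IV against 3588 in CPN in library 3, 4409 against 3856 in library 4, and 3951 against 4656.5 in library 5. Layer IV was thus below CPN in libraries 3 and 5 and above it in library 4. At P7 it was far below in both, at 3162 against 5223 UMIs in library 1 and 3350 against 5411 in library 2. At P21 the order was turned round in each library, at 7675 against 3792 in library 6, 8354.5 against 4264 in library 7 and 9080.5 against 5722.5 in library 8. The layer IV values of libraries 6 and 7 rest on 13 and 10 cells, under the minimum of 20 cells used for the main tests, while library 8 had 178.

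Expressed as a ratio, the layer IV median was 0.889, 1.14 and 0.848 times that of CPN in the P1 libraries. It was 0.605 and 0.619 times in the P7 pair, and 2.02, 1.96 and 1.59 times in libraries 6, 7 and 8. The log2 ratio averaged -0.07 ± 0.23 over P1 (SD, n = 3) and -0.71 ± 0.023 over P7 (SD, n = 2), and was 0.67 in library 8. This difference between the types itself differed among ages (adjusted p = 0.0222 over 4 measures, exact permutation test over libraries). The P21 value of that test is library 8 alone. With libraries 6 and 7 added the adjusted p was 0.00714, and without library 8 it was 0.133, in the exact permutation test, which then compares P7 with P1 only and cannot go below 0.1 before adjustment. Leaving out any other of the 6 libraries likewise left no room for a call, as the smallest p was then 0.0667 or 0.1. The test counts the P7 libraries, which share a day, as separate, and with their mean counted as 1 library the adjusted p was 0.133 for UMIs, for genes and for the mitochondrial share, and 0.2 for genes at matched UMIs (exact permutation test, smallest p 0.1). Pooled over ages, the difference between layer IV and CPN did not pass (mean log2 ratio -0.16 ± 0.53, SD, n = 6, lower in 4 of 6 libraries; adjusted p = 0.667, exact sign-flip permutation test), a mean that turns to 0.13 with libraries 6 and 7 added. The mean was -0.05 without library 1 or without library 2, and -0.33 without library 8.

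Single cells showed the same order. In library 1 a layer IV cell had more UMIs than a CPN cell in 17.3% of all pairs of cells, and in library 2 in 15.2%. In library 8 it had more in 89.5% of pairs, and at P1 in 43.1%, 60.2% and 44.8%. The contribution to the captured transcripts moved with this. Layer IV neurons held 10.3% and 11.1% of the UMIs of projection neurons at P7, where they were 15.1% and 16.1% of the cells, and 71.0% of those UMIs in library 8, where they were 62.5% of the cells.

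Genes detected per cell went the same way as UMIs. Layer IV and CPN medians were 1554 and 1691 genes in library 3, 2036.5 and 1839.5 in library 4, and 1890 and 2083 in library 5. At P7 layer IV had 1727 genes against 2336 in library 1 and 1777 against 2388 in library 2. The P21 libraries 6, 7 and 8 had 3197, 3287.5 and 3621 genes in layer IV against 2170, 2301 and 2921 in CPN. The log2 ratio was -0.04 ± 0.16 for P1 (SD, n = 3), -0.43 ± 0.0067 for P7 (SD, n = 2) and 0.31 in library 8, and differed among ages (adjusted p = 0.0222, exact permutation test). The adjusted p was 0.00714 with libraries 6 and 7 added and 0.133 without library 8 (exact permutation test).

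The mitochondrial share of UMIs, the part of a cell's transcripts that comes from the mitochondrial genome, was higher in layer IV than in CPN at P1, close to it at P7 and lower at P21. The P1 medians were 4.68% in layer IV against 3.97% in CPN in library 3, 5.07% against 4.32% in library 4 and 4.95% against 3.58% in library 5. At P7 they were 5.84% against 5.85% and 5.61% against 5.75%, differences of -0.012 and -0.139 percentage points. At P21 they were 2.76% against 4.27% in library 6, 3.23% against 4.70% in library 7 and 2.81% against 3.56% in library 8. The difference was 0.941 ± 0.372 percentage points for P1 (SD, n = 3), -0.0753 ± 0.0895 for P7 (SD, n = 2) and -0.752 in library 8, and differed among ages (adjusted p = 0.0222, exact permutation test). Adding libraries 6 and 7 gave an adjusted p of 0.00952, and leaving out library 8 gave 0.133, in the exact permutation test.

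The mitochondrial share can move with the number of UMIs, so it was also compared between cells with like counts, in bins of 500 UMIs. The P1 difference stayed above 0 in all 3 libraries, at 0.582, 0.603 and 1.05 percentage points. At P7 it was 0.117 and -0.0027. In library 8 it was -0.012 points, in place of -0.752 over all cells, but this value rests on 23 of the 178 layer IV cells, those in bins that also held at least 5 CPN.

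**Figure D2:**
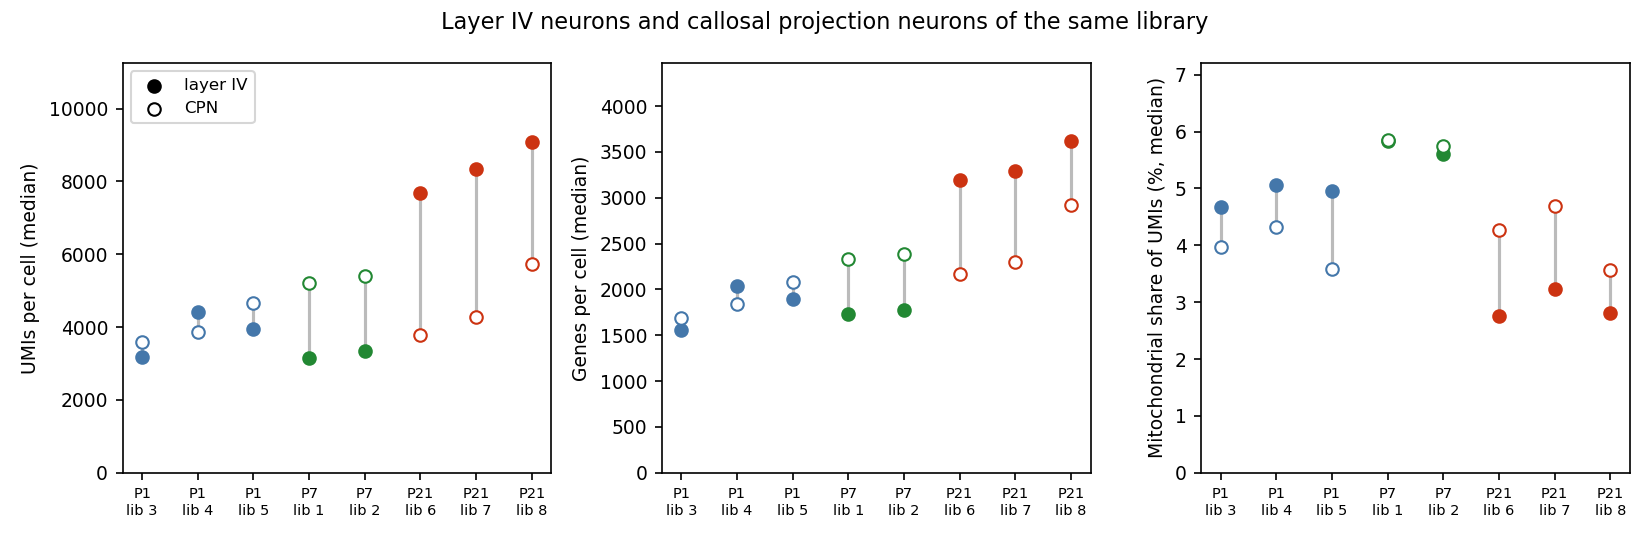
Medians of layer IV neurons (filled) and callosal projection neurons (open) in each library, joined by a line and coloured by age, for UMIs per cell (left), genes per cell (middle) and the percentage of UMIs that were mitochondrial (right). Layer IV lies below CPN in UMIs at P7 (3162 against 5223 in library 1) and above it at P21 (9080.5 against 5722.5 in library 8).

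Genes per cell follow UMIs closely, so the number of genes was compared at matched UMIs as well. Within bins of 500 UMIs the differences were small. The mean log2 number of genes in layer IV minus CPN was -0.012, 0.017 and 0.028 in libraries 3, 4 and 5, and 0.039 and 0.032 in libraries 1 and 2, which is at most a 1.03-fold difference. In library 8 it was -0.060, again over 23 layer IV cells in 2 bins. Over the 6 libraries the mean was 0.0072 ± 0.038 (SD, n = 6, higher in 4 of 6), and it did not pass the exact sign-flip permutation test (adjusted p = 0.688). The difference passed among ages in the exact permutation test, with an adjusted p of 0.0333 that became 0.2 without library 8 or with P7 counted as 1 library. At P7 layer IV cells thus had 0.739 and 0.744 times the genes of CPN over all cells, and slightly more genes than CPN at a like UMI count.

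Subcerebral projection neurons (SCPN), the deep-layer cells that project to brainstem and spinal cord, carried more UMIs than layer IV neurons in the 5 libraries of P1 and P7. Layer IV had 0.650, 0.926 and 0.674 times the SCPN median in libraries 3, 4 and 5, and 0.642 and 0.671 times in libraries 1 and 2. The SCPN clusters of P1 lay on both sides of layer IV, which had a median of 3932.5 UMIs over all P1 cells. Cluster 14 had 6947.5 UMIs over 528 SCPN, and cluster 16 had 3626 over 360. In library 8 the ratio was 1.05, with 9080.5 against 8612 UMIs and 23 SCPN, and in library 6 it was 1.11. The mean log2 ratio was -0.41 ± 0.31 (SD, n = 6, lower in 5 of 6) and did not pass (adjusted p = 0.0833, exact sign-flip permutation test). At matched UMIs layer IV had slightly fewer genes than SCPN in all 5 libraries with a value, by -0.048 ± 0.011 on the log2 scale (SD, n = 5; adjusted p = 0.0833, exact sign-flip permutation test, whose smallest p here is 0.0625). The mitochondrial share was higher in layer IV than in SCPN by 0.255 to 1.08 percentage points at P1 and P7, and lower by a difference of -2.11 points in library 8 and -2.20 in library 6. Averaged over 6 libraries it did not pass (0.138 ± 1.13 points, SD, n = 6; adjusted p = 0.781, exact sign-flip permutation test).

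Corticothalamic projection neurons (CThPN), the layer VI cells that project back to the thalamus, could be compared at P1 and P7, where that type was named. Layer IV cells had 0.815, 1.28 and 1.10 times their UMIs in libraries 3, 4 and 5, and 0.728 and 0.746 times in libraries 1 and 2. Their mitochondrial share was lower than that of layer IV in all 5 libraries, by 1.21, 1.12 and 1.59 percentage points at P1 and by 1.19 and 1.15 at P7. With 5 libraries the exact sign-flip permutation test cannot go below 0.0625, and for this difference of 1.25 ± 0.194 points (SD, n = 5) it gave that value, or 0.25 after adjustment. For UMIs the adjusted p was 0.5 in the same exact permutation test. At matched UMIs layer IV had fewer genes than CThPN at P1, at -0.083, -0.065 and -0.043 on the log2 scale, and more at P7, at 0.026 and 0.023.

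**Figure D3:**
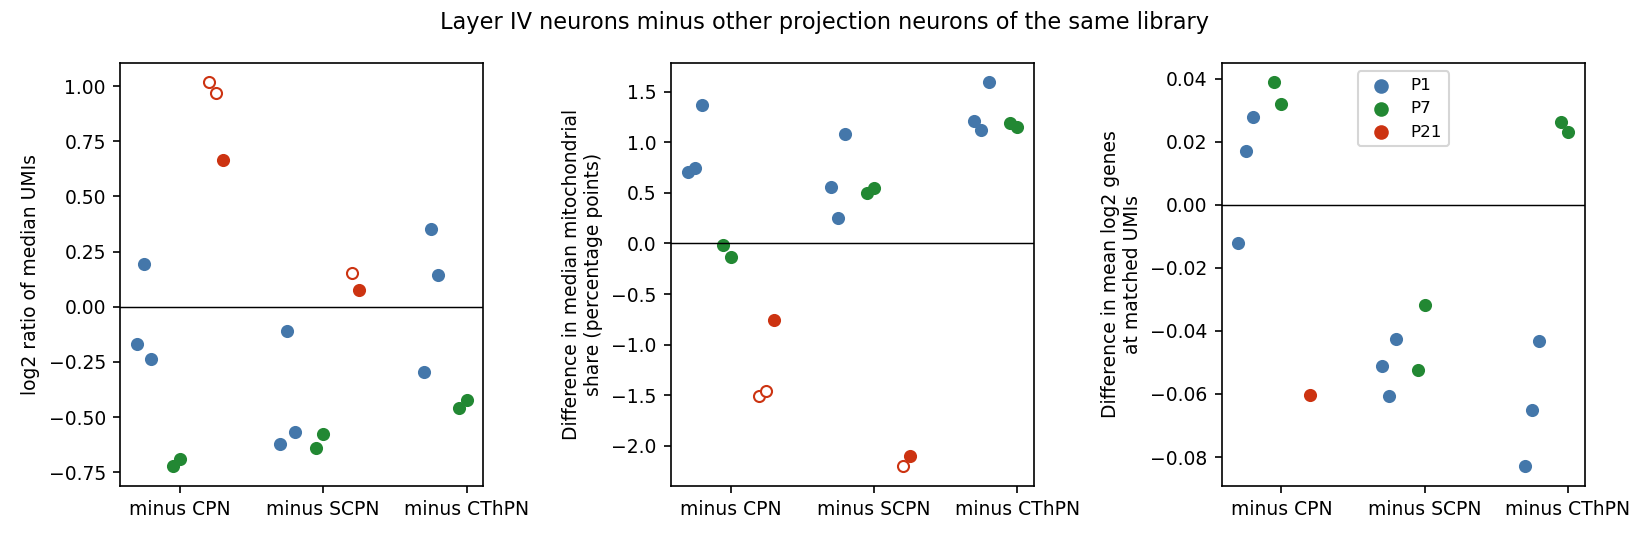
Layer IV neurons minus CPN, SCPN and CThPN of the same library, as the log2 ratio of median UMIs (left), the difference in median mitochondrial share in percentage points (middle) and the difference in mean log2 genes at matched UMIs (right). Each point is a library, coloured by age, and open points have under 20 layer IV cells; against CPN the P7 points of the left panel lie at -0.72 and -0.69 and the P21 points between 0.67 and 1.02.

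The place of the layer IV cluster among the projection neuron clusters differed between measures and ages. At P7 it had the lowest median UMIs and the lowest median genes of the 12 projection neuron clusters in both libraries, and all 6 CPN clusters lay above it, the nearest at 4104 UMIs in library 1 and 4632 in library 2. At P1 it ranked 10 of 12 in UMIs in library 3, 7 of 12 in library 4 and 9 of 12 in library 5. Its mitochondrial share was the highest of the 12 clusters in libraries 3 and 5 and the second highest in library 4, and above all 6 CPN clusters in each. At P7 it ranked 5 of 12 in mitochondrial share in both libraries. At P21 it had the most UMIs and genes and the lowest mitochondrial share of the clusters present in each library, of which there were 3, 2 and 3. With 2 or 3 clusters most places are an end, so the places at P21 carry little weight. All these ranks are a description, since clusters were made from the same cells.

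**Figure D4:**
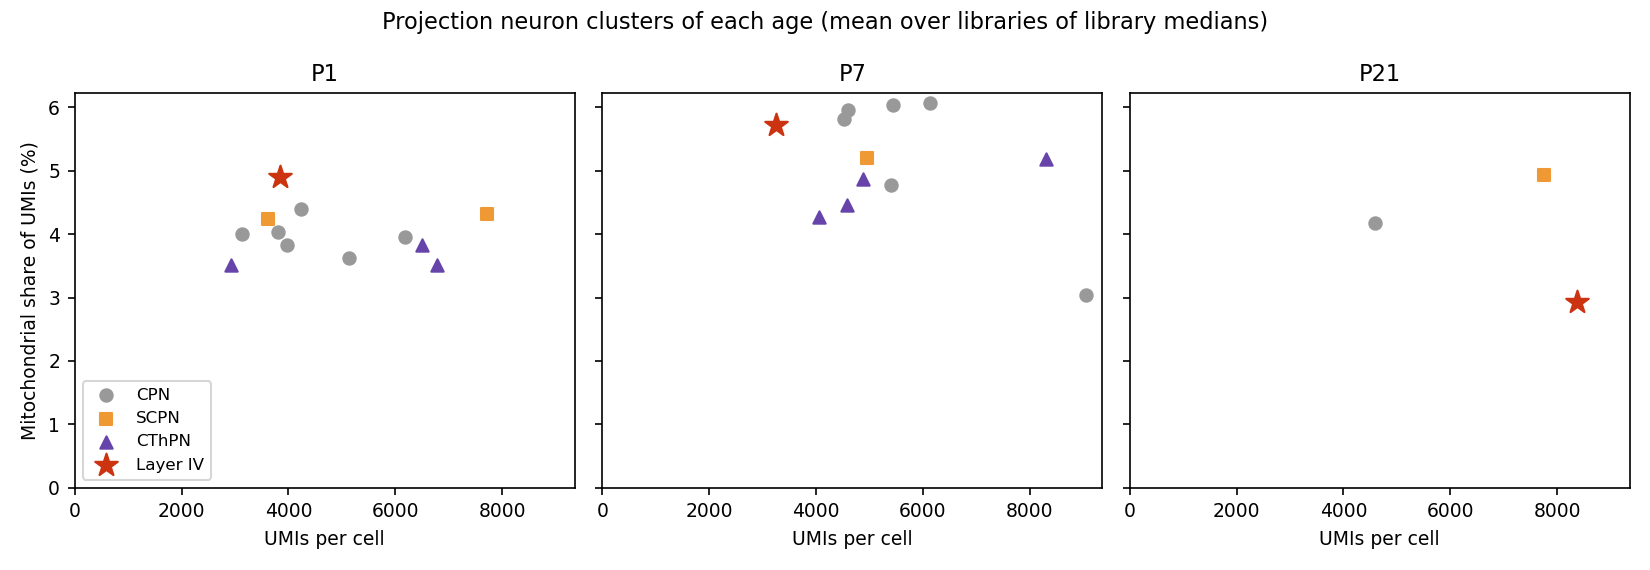
UMIs per cell (horizontal axis) and mitochondrial share of UMIs in percent (vertical axis) of each projection neuron cluster at P1, P7 and P21, as the mean over libraries of the library medians; symbols give the type. The layer IV cluster (star) stands at 3850 UMIs and 4.90% in the P1 panel, 3256 UMIs and 5.73% in the P7 panel, and 8370 UMIs and 2.94% in the P21 panel, where libraries 6 and 7 enter with 13 and 10 cells.

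Followed on its own across ages, the layer IV median went from 3850 ± 616 UMIs in P1 libraries (SD, n = 3) to 3256 ± 133 in P7 libraries (SD, n = 2) and 9080.5 in library 8. Genes went from 1827 ± 247 (SD, n = 3) to 1752 ± 35.4 (SD, n = 2) and 3621, and the mitochondrial share from 4.90% ± 0.201 (SD, n = 3) to 5.73% ± 0.161 (SD, n = 2) and 2.81%. P1 and P7 libraries overlapped in UMIs and in genes but not in mitochondrial share, where all P7 values lay above all P1 values. With library 8 as the only P21 library, adjusted p was 0.075 for UMIs, 0.117 for genes and 0.05 for the mitochondrial share in the exact permutation test, none below the threshold of 0.05. With libraries 6 and 7 included all 3 measures passed (adjusted p = 0.0161, 0.025 and 0.0107, exact permutation test). Reads had been thinned to similar depth per cell before the tables were made, so the levels are relative to that depth and not to the RNA of a cell.

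The spread of UMIs among layer IV cells is given as a description, with no test. The 90th percentile of UMIs was 2.90, 2.45 and 3.10 times the 10th percentile in libraries 3, 4 and 5, 2.25 and 2.21 times in libraries 1 and 2, and 1.51 times in library 8. In CPN the ratio was 3.05, 3.57 and 3.81 at P1, 2.68 and 2.47 at P7 and 2.84 in library 8. Layer IV was thus narrower than CPN in all 6 libraries with at least 20 cells of each, though CPN hold several clusters at P1 and P7. Taken cluster by cluster, 5, 5 and 4 of the 6 CPN clusters were wider than layer IV in libraries 3, 4 and 5, and 3 of 6 in each P7 library.

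The ends of the distributions are described with cutoffs chosen here, which lie inside the authors' filters. Cells that those filters removed could not be seen. Layer IV cells with under 1500 genes were 43.6%, 3.21% and 11.7% of the type in libraries 3, 4 and 5, and 23.4% and 17.0% at P7. Among CPN these shares were 32.4%, 24.2% and 19.3% at P1, and 4.60% and 2.06% at P7. Library 4 thus held few layer IV cells with low gene counts, though not few such CPN. It was also the only P1 library in which layer IV exceeded CPN in UMIs. Genes per cell follow UMIs closely, so these are not separate observations. At the other end, 28.7% of the layer IV cells of library 8 had over 10000 UMIs, against 3.57% of its CPN, where the highest layer IV cell had 14650 UMIs and the authors' maximum for a cell was 15000. At P7 these shares were 0.681% and 0.430% of layer IV cells, against 6.52% and 7.18% of CPN. A mitochondrial share under 5% was found in 60.5%, 47.0% and 51.7% of layer IV cells at P1, in 27.0% and 32.7% at P7, and in 97.2% in library 8. For CPN it was 78.0%, 70.5% and 86.6% at P1, 26.6% and 30.3% at P7, and 66.7% in library 8. How far the filters, the digestion or the capture set these distributions was not tested.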

How the data were processed

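The authors aligned reads to mm10 with Cell Ranger 3.0.1, thinned the libraries to similar depth per cell on joining them, and filtered cells to between 1000 and 6000 genes, no more than 15000 UMIs and under 10% mitochondrial UMIs. They removed outlier clusters within each age, regressed out UMIs and mitochondrial share before clustering, and typed the clusters by markers, so the measures here are not wholly independent of the names. The deposited table gave UMIs per cell as counts, genes per cell, the mitochondrial share as a fraction (printed here in percent), age, cluster and cell type. The sources used here do not say how doublets were handled; none were called. Libraries could not be matched to single samples and were grouped by the age in the table. Libraries held 7751963 to 58553300 UMIs, of which layer IV cells had 83925 to 8993231.

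Layer IV was compared with CPN, SCPN and CThPN of the same library by medians, as log2 ratios (UMIs, genes) or differences (mitochondrial share). Genes were also compared in bins of 500 UMIs with at least 5 cells of each type, weighted by layer IV cells. Libraries needed 20 cells of each type. Exact sign-flip permutation tests over libraries, and exact permutation tests of the between-age sum of squares, were two-sided, with Benjamini-Hochberg adjustment over 4 measures for each type compared, 3 for levels and 3 for shares, and a threshold of 0.05. Both were tested on simulated data. The simulated sets did not include ages with only 1 P21 library, nor a sign-flip test over 5 libraries. The members, measures and tests were chosen with earlier results of these data known. The text names all libraries, all layer IV clusters and all projection neuron types. Alternatives were means, other cell minimums, filters on cells, bin widths and denominators, P7 libraries counted as 1 and leaving out each library. Scripts used Python 3.11.15 with pandas 2.3.3, numpy 2.4.6, scipy 1.17.1 and, for figures, matplotlib 3.10.9.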

Additional observations from a re-analysis of the deposited data

Results flagged for a closer look

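The layer IV minus CPN difference was singled out in all 4 measures because it differed among ages in the exact permutation test. From P1 to P7 it moved by -0.64 in log2 UMIs, -0.39 in log2 genes, -1.02 percentage points of mitochondrial share and 0.024 in log2 genes at matched UMIs, and the further step to P21 was 1.37, 0.74, -0.676 and -0.096 in library 8.

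Against SCPN, every P21 library with at least 5 cells of each type lay on the other side of 0 from every P1 and every P7 library, a difference between ages that was not tested. In genes these P21 log2 ratios were almost 0, at 0.0024 in library 8 and 0.033 in library 6. In UMIs they were 0.076 and 0.15, with 23 SCPN in each library and 13 layer IV cells in library 6. From P1 to P21 the change was 0.55 in log2 UMIs, 0.37 in log2 genes and -2.79 percentage points of mitochondrial share, and from P7 to P21 it was 0.72, 0.44 and -2.68. Against CThPN, the P1 and P7 libraries lay on opposite sides of 0 in genes at matched UMIs, a change of 0.089 on the log2 scale that was not tested either.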

How the results depend on the processing

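Values among ages are given as P7 minus P1. With a minimum of 5 cells, which adds libraries 6 and 7, the pooled layer IV minus CPN means turned to 0.13 in log2 UMIs, 0.051 in log2 genes and -0.13 percentage points of mitochondrial share, and the SCPN difference in mitochondrial share to -0.20, none past the threshold. The layer IV levels passed among ages with that minimum (-594 UMIs, -74.8 genes, 0.828 points; through the P21 values) and among cells with at least 1500 genes (-732, -118 and 0.974). With P7 counted as 1 library, the layer IV minus CPN calls among ages were lost (-0.64, -0.39, -1.02 and 0.024), as 5 libraries cannot go below p = 0.1 in this exact permutation test. The share of all cells lost its call on the logit scale (-0.30), with P7 as 1 (-3.81 points) and among cells with at least 1500 genes (-6.33).

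Leaving out each library left too few for any layer IV minus CPN call among ages, with smallest p of 0.0667 or 0.1 in the exact permutation test; values ran from -0.72 to -0.50 (UMIs), -0.44 to -0.30 (genes), -1.13 to -0.80 (mitochondrial share) and 0.013 to 0.033 (genes at matched UMIs). The pooled layer IV minus CPN means ran from -0.33 to -0.05 (UMIs), -0.20 to -0.05 (genes), 0.110 to 0.534 (mitochondrial share) and 0.00083 to 0.021 (genes at matched UMIs). The share of all cells ran from -6.02 to -2.07, the share of CPN and layer IV from -3.86 to 2.13, the layer IV gene level from -211 to 30 and the SCPN mitochondrial difference from -0.049 to 0.59. The other alternatives run kept direction and side of the threshold, but means per library in place of medians gave -1036 UMIs and -183 genes for the layer IV levels and -0.631 points for the layer IV minus CPN mitochondrial share among ages. No paired analysis was possible because libraries of different ages share no number or animals; within libraries, types were paired by the library.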
